A study of Mus musculus with 6 samples.

Results

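The BH3-only genes encode the death-promoting branch of the BCL-2 family. The 10 genes described here are Bcl2l11 (encoding BIM), Bid, Bad, Bbc3 (PUMA), Pmaip1 (NOXA), Bmf, Bik, Hrk, Bnip3 and Bnip3l (NIX). They were taken as a list of names, by matching the Ensembl gene identifiers of the deposited files to mouse symbols. No measured value entered the matching, but the list was chosen with earlier results of these data known. All 10 were found, with 46 of the 118492 transcripts and among 48353 genes in all. Polyadenylated RNA was sequenced single-end from hepatocytes, the metabolic cells of the liver, freed by collagenase perfusion. The knock-out group (3 libraries) came from mice in which a floxed Bim allele was deleted through Alb-Cre, a Cre recombinase driven by the albumin promoter of hepatocytes. The wild-type group (3 libraries) is labelled only as such, so whether it carried the floxed allele or Alb-Cre is not given. Both groups are C57BL/6, and the protocol speaks of male mice on regular chow or a high fat diet without saying which samples had which diet, nor their age at sampling. The labels speak of 6 batches of hepatocytes without tying them to separate animals, so every p-value measures only the spread between these libraries, which may be technical.

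BCL-2 family proteins decide whether the outer mitochondrial membrane is opened to release cytochrome c. Anti-apoptotic members such as BCL-2, BCL-XL and MCL-1 hold the pore-forming effectors BAX and BAK in check, and BH3-only proteins bind the anti-apoptotic members, or the effectors themselves, through a short helix called the BH3 domain. In the liver BID is known as the link from death receptors to mitochondria, because hepatocytes need its cleavage by caspase-8 to die after Fas stimulation. The series concerns BIM as a protein downstream of the stress kinase JNK in hepatic oxidative stress, fat accumulation and insulin resistance.

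The BH3 domain is the feature that names the family, and the stretch of coding sequence that holds it is shown for the members with reads other than Pmaip1, because it decides below whether a transcript that received reads could encode the domain. The stretches are from GENCODE release M21 (GRCm38) and read 5′ to 3′ on the coding strand. Capitals mark the codons of the core: leucine, any 3 residues, then glycine, alanine or serine, then aspartate. The search also required glutamate, aspartate, glutamine, tryptophan or lysine after it, a pattern written with the known BH3 domains in view. It occurred in 21 of the 25 coding transcripts of the members and in 8.4% of 58797 protein-coding transcripts of the annotation.
Bcl2l11: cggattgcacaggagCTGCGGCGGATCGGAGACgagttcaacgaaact
Bid: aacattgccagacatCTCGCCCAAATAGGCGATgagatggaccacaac
Bad: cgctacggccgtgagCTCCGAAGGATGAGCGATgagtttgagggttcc
Bbc3: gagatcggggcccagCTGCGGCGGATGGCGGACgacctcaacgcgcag
Bmf: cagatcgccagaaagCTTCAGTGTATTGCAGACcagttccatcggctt
Bik: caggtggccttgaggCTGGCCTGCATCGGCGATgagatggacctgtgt
Bnip3: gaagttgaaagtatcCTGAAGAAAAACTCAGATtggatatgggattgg
Bnip3l: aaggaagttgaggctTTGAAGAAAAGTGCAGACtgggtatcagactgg
The Bcl2l11 stretch lies at chr2:128147135-128147182 on the plus strand, within a single coding exon. Bid has its stretch at chr6:120897283-120897330 on the minus strand and Bad at chr19:6950777-6950824 on the plus strand. Those of Bbc3 (chr7:16313758-16313805) and Bik (chr15:83543069-83543116) are on the plus strand. Those of Bmf (chr2:118545094-118545141), Bnip3 (chr7:138894639-138894686) and Bnip3l (chr14:66989435-66989482) are on the minus strand.

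Each deposited file gives every transcript an estimated read number and an RPKM value, which is that number per kilobase of transcript and scaled to a total for the library. The libraries held 25335211 to 28245264 estimated reads in the knock-out group and 28131355 to 31130519 in the wild-type group. The totals behind the RPKM values, worked back from them, were lower. They were 19245556 to 20232624 in the knock-out group and 20533980 to 21899881 in the wild-type group. Markers of hepatocytes summed to 25822 to 40096 RPKM in the knock-out group and 21884 to 44766 RPKM in the wild-type group, with 10 or 11 of the 11 genes found of 12 listed above 0 in every library. The endothelial list had at most 3 of 8 genes above 0 in any library, and all 8 stellate cell genes, such as Col1a1 and Pdgfrb, were listed at 0 in all 6. Endothelial markers summed to 43.7 RPKM in wild-type replicate 1 and to at most 1.86 RPKM in any other library. The biliary list had 2 or 3 of 6 genes above 0 in each library. They summed to 9.09 to 509.87 RPKM in the knock-out group and 123.46 to 353.11 RPKM in the wild-type group, with Krt7, Krt19 and Cftr at 0 throughout. Wild-type replicate 1 stood apart: its 12 macrophage markers were all above 0 and summed to 4343 RPKM, against 78.6 to 139.98 RPKM in the other 5 libraries. Those 5 libraries each had 6 to 8 of the 12 markers above 0. Cd5l, Csf1r, Marco, Lyz2, C1qa and C1qb were above 0 in every library. Their sum was 66.8 to 139.98 RPKM in those 5 libraries and 2987 RPKM in wild-type replicate 1. Adgre1 and Clec4f, which define macrophages and Kupffer cells, were at 0 in those 5 libraries, as were Ptprc and Vsig4. In bulk RNA fewer cells of a type and less RNA per cell cannot be told apart. Exact zeros set loci with several annotated transcripts apart from loci with 1. Among loci above 0 in 3 or more libraries and with a median above 100 reads in those, zeros made up 2 of 12822 values (0.02%) where 1 transcript is annotated, but 5906 of 32778 (18.02%) where several are. The share did not rise further with their number: 18.72% with 2 to 4 transcripts, 18.02% with 5 to 8 and 17.09% with 9 or more. A 0 at a locus with several transcripts may therefore be a failed estimate, so genes with zeros are given value by value, without mean or fold, except that the fitted difference of the targeted gene Bcl2l11 is added.

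Of the 10 genes, 4 had reads in all 6 libraries (Bid, Bad, Bik and Pmaip1), 5 in only some (Bcl2l11, Bbc3, Bmf, Bnip3 and Bnip3l) and 1, Hrk, in none. Just 14 of their 46 transcripts received reads in any library. Bik and Pmaip1 have 1 annotated transcript at their locus. The other 8 genes have 2 to 8, and all 5 genes with reads in only some libraries are among those. The plot of estimated reads by library shows this division.

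**Figure D1:**
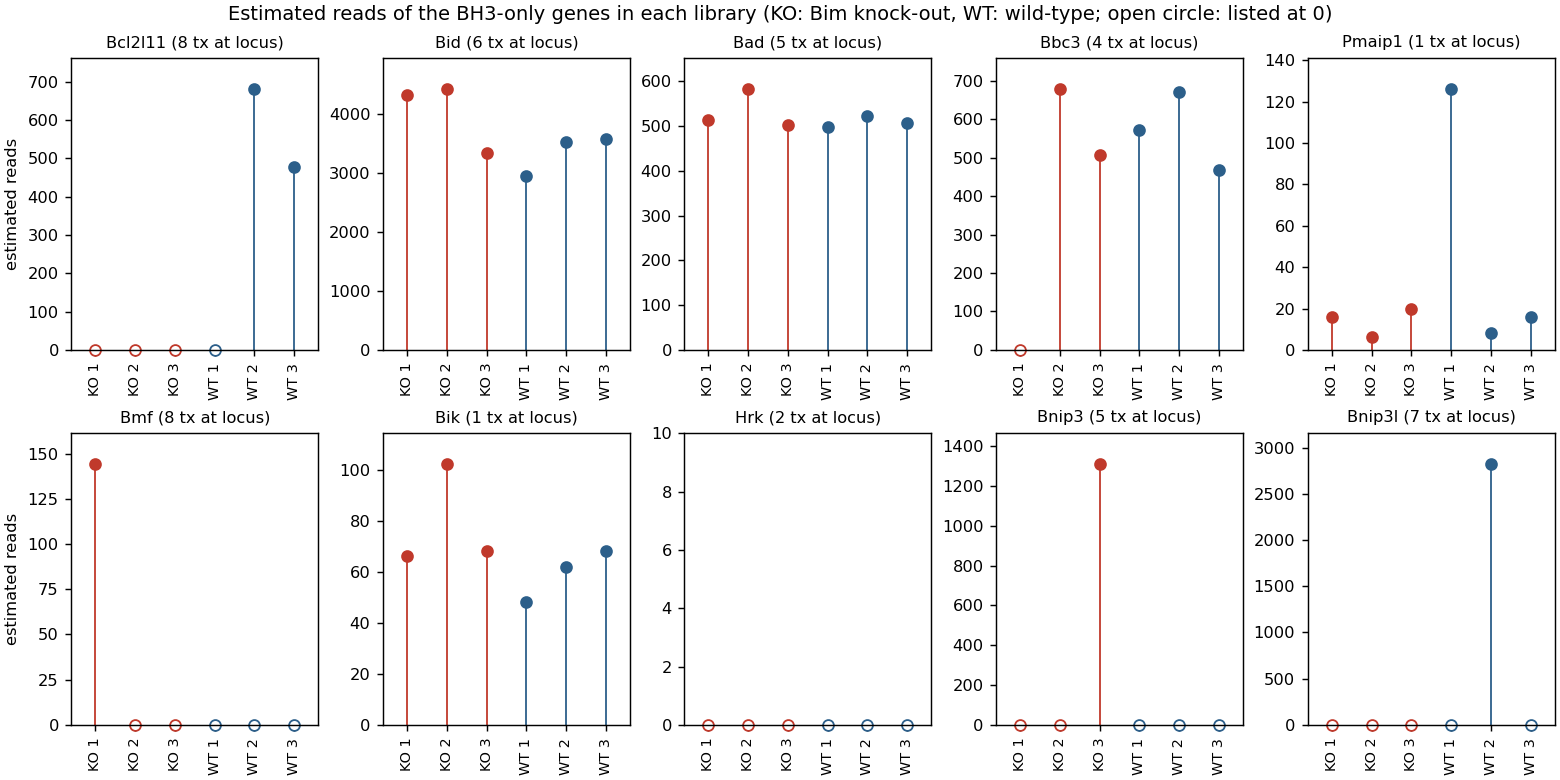
Estimated reads (y axis, linear from 0) of each BH3-only gene in the 3 Bim knock-out libraries (KO, red) and the 3 wild-type libraries (WT, blue), with the number of transcripts at the locus in each title and open circles for values listed at 0. Bid, Bad, Bik and Pmaip1 have reads in all 6 libraries, while Bmf, Bnip3 and Bnip3l have reads in 1 library each.

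Bcl2l11, the targeted gene (ENSMUSG00000027381, chromosome 2, 128126038 to 128162547, plus strand), was listed at 0 reads in knock-out replicates 1, 2 and 3. Of the wild-type libraries, replicate 1 was likewise at 0, while replicate 2 had 680 estimated reads (8.78 RPKM) and replicate 3 had 478 (6.58 RPKM). The groups overlap, since wild-type replicate 1 is at 0 like the knock-out libraries. All 8 transcripts of the locus belong to Bcl2l11, and 4 of them hold the BH3 codons shown above. The reads of wild-type replicates 2 and 3 went wholly to ENSMUST00000103210, a transcript of 5 exons and 3538 bases that has the BH3 codons in exon 4 and codes for 140 residues, the length of the BIM form known as BIM-L. The transcripts coding for 196 residues, the length of BIM-EL, and for 110 residues, the length of BIM-S, were listed at 0 in every library. Its difference, knock-out less wild-type in log2(RPKM + 1), came to -2.07 (SE 0.97) and did not pass (limma adjusted p = 0.941 over 11021 genes). An exact permutation test, two-sided, returned p = 0.4 for its RPKM, and with 3 libraries a group no p under 0.1 is possible. The size of the difference depends on the scale, at -4.18 with a pseudocount of 0.1 in place of 1 and -6.75 with voom. Without wild-type replicate 1, the wild-type library at 0, the difference was -3.11 and the limma adjusted p 0.00549. Leaving it out sets 3 zeros against 2 values above 0, and 205 of the 207 genes called in that setting also had a library at 0. Without wild-type replicate 2 or 3 the limma adjusted p was 0.842 or 0.874. Whether the 0 of wild-type replicate 1 is a failed estimate was not tested, so the low p is not taken as evidence about Bcl2l11 RNA.

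The set of libraries at 0 in Bcl2l11 was shared by 84 other tested genes, of 1119 tested genes above 0 in exactly 2 libraries. How many of the 1119 fall on each other choice of 2 libraries was not counted, so the 84 does not mark this set as special. The 3 with the closest levels were Epb41l1, Fam102b and Sirt6, with a root mean square difference from Bcl2l11 over the 6 libraries of 0.046, 0.078 and 0.092 in log2(RPKM + 1). Sirt6, a chromatin deacylase, was listed at 0 in the knock-out libraries and wild-type replicate 1, and had 310 and 276 estimated reads in wild-type replicates 2 and 3. The labels do not say which exons of Bim were floxed, and the files give no value per exon, so the deleted part could not be looked at apart from the rest.

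Bid had the highest levels per length of the 4 genes with reads in every library. Its estimated reads were 4322, 4426 and 3348 in knock-out replicates 1 to 3, against 2952, 3530 and 3576 in wild-type replicates 1 to 3. Knock-out replicates 1 and 2 are the highest, while replicate 3 lies below the upper wild-type libraries, so the groups overlap. Bid averaged 84.4 ± 11 RPKM in the knock-out group and 65.8 ± 7.05 RPKM in the wild-type group (mean ± SD of 3 libraries a group). The difference was 0.35 on the log2(RPKM + 1) scale, with a 95% interval of -0.05 to 0.75, or 1.28-fold in RPKM + 1 with an interval of 0.968 to 1.68, and Bid did not pass the limma test (adjusted p = 0.941). The exact two-sided permutation test of its RPKM gave p = 0.2. The interval leaves room for no difference and for a rise of more than 1.5-fold.

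Nearly all Bid reads were assigned to ENSMUST00000160684, which took 96.2% to 100% of them in the knock-out libraries and 96.6% to 100% in the wild-type libraries. The annotation classes this transcript as a target of nonsense-mediated decay, the pathway that removes mRNAs with an early stop. Its coding sequence of 585 bases is as long as that of ENSMUST00000004560, classed as protein-coding, and both hold the BH3 codons at the same place. ENSMUST00000004560 received 167.5 reads in knock-out replicate 2, 120.1 reads in wild-type replicate 3 and 0 in the other 4 libraries. The locus overlaps a second gene, Gm44260, which was at 0 in all libraries.

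Bad encodes a BH3-only protein that growth factor kinases such as AKT phosphorylate and that also binds glucokinase in hepatocytes. Its estimated reads were 514, 582 and 502 in knock-out replicates 1 to 3 and 498, 522 and 506 in wild-type replicates 1 to 3, the narrowest relative range among the 4 genes with reads in every library. Except for knock-out replicate 2, all libraries lie between 498 and 522 reads, and the groups overlap. In RPKM Bad averaged 31.1 ± 4.81 in the knock-out group and 31.2 ± 3.07 in the wild-type group (SD, n = 3 each). The difference was -0.01 on the log2(RPKM + 1) scale, with a 95% interval of -0.44 to 0.43, or 0.737-fold to 1.34-fold in RPKM + 1, and the limma adjusted p was 1. The value was positive on reads scaled to library size (0.16) and with quantile normalization (0.08), and it was -1.25 on the transcript with the highest mean alone.

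The reads of Bad were split over 4 transcripts in proportions that varied far more than the total. ENSMUST00000145463, a short model with 62 residues of coding sequence, took 33.9%, 9.5% and 39.5% of them in knock-out replicates 1 to 3, against 70.1%, 54.8% and 78.5% in wild-type replicates 1 to 3. The groups do not overlap in this share, which was looked at after the values were seen and was not tested. It was 1 of the 6 transcripts of Bad and Bid that could be compared in this way. Over all 5935 transcripts of genes with reads in every library and on 2 or more transcripts, 253 (4.26%) had shares that did not overlap. The longest transcript of Bad, ENSMUST00000025910, took 31.5%, 27.4% and 60.5% in the knock-out group and 29.9%, 34.9% and 10.3% in wild-type. All 4 transcripts hold the BH3 codons, so the assignment does not bear on whether the reads could encode the domain.

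Bbc3 encodes PUMA, a target of p53 that binds all the main anti-apoptotic proteins. It was listed at 0 in knock-out replicate 1 and had 678 and 506 estimated reads in knock-out replicates 2 and 3, against 572, 670 and 468 in wild-type replicates 1 to 3. Apart from the library at 0, both groups cover the same range. Its RPKM values do not show this: they were 0, 18.9 and 14.5 in the knock-out group and 67.4, 16.9 and 12.6 in the wild-type group. The 572 reads of wild-type replicate 1 were assigned to ENSMUST00000209688, of 405 bases, and all other reads to ENSMUST00000002152, of 1814 bases. On the length of the second transcript the same 572 reads would come to 15.1 RPKM, within the range of the other libraries with reads. ENSMUST00000002152 holds the BH3 codons in exon 3 of 4, and in the annotated coding sequence of ENSMUST00000209688 the core pattern was not found. By the measure given above, zeros made up 18.7% of values at loci of 2 to 4 transcripts. Bbc3 did not pass the limma test (adjusted p = 0.941).

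**Figure D2:**
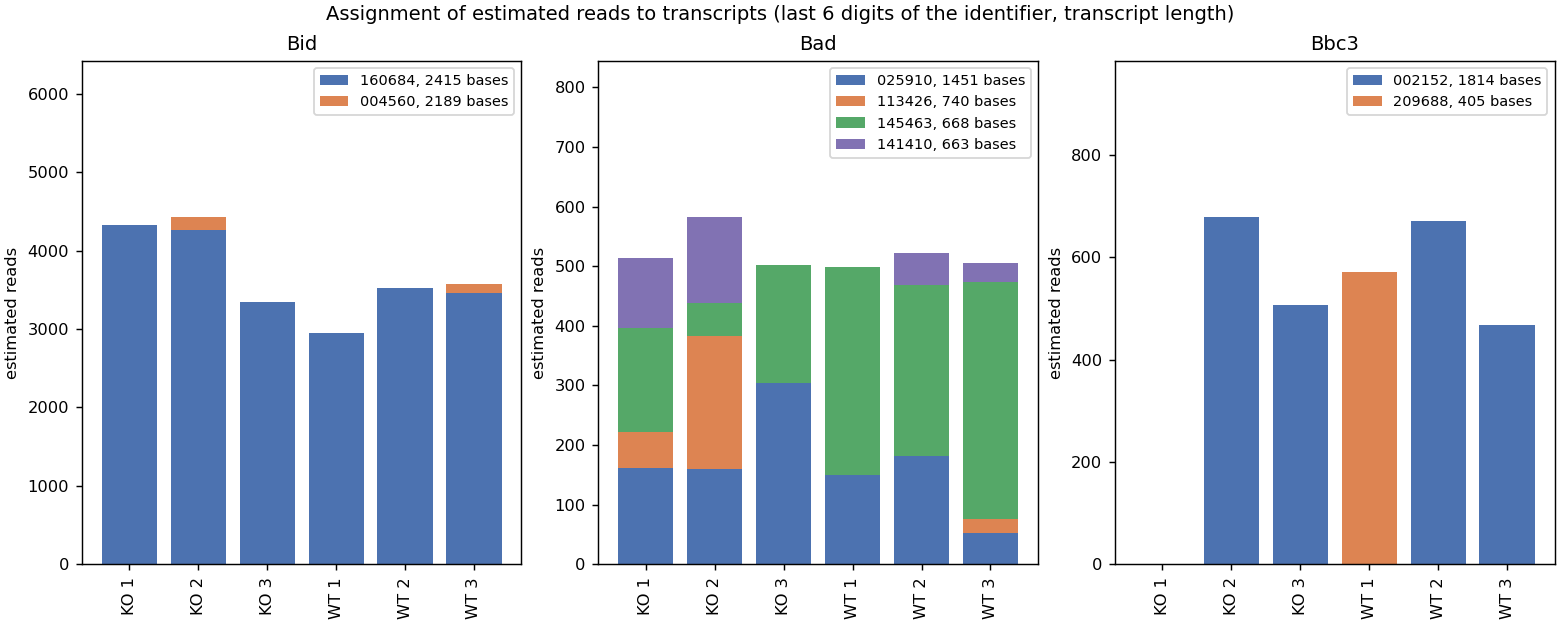
Estimated reads (y axis, linear from 0) of Bid, Bad and Bbc3 in each library, stacked by the transcript they were assigned to, with knock-out libraries (KO) left of wild-type libraries (WT). The Bad totals stay between 498 and 582 while their division changes, and the Bbc3 reads of wild-type replicate 1 sit wholly on a transcript of 405 bases.

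Pmaip1 encodes NOXA, which binds MCL-1 and is induced by p53 and by stress of several kinds. With 1 transcript at its locus, it had 16, 6 and 20 estimated reads in knock-out replicates 1 to 3 and 126, 8 and 16 in wild-type replicates 1 to 3. Wild-type replicate 1 alone is high, and the other 5 libraries of both groups overlap. Its levels were 0.3, 0.11 and 0.39 RPKM in the knock-out group and 2.27, 0.14 and 0.29 RPKM in the wild-type group. At a mean of 0.58 RPKM Pmaip1 fell short of the filter, and with no filter its limma adjusted p was 0.884. The exact two-sided permutation test gave p = 0.7. Wild-type replicate 1 is the library with 4343 RPKM of macrophage markers, against 78.6 to 139.98 RPKM elsewhere, and their part in the Pmaip1 value was not tested.

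Bik, a BH3-only gene whose protein sits largely at the endoplasmic reticulum, was low but read everywhere. It had 66, 102 and 68 estimated reads in knock-out replicates 1 to 3 and 48, 62 and 68 in wild-type replicates 1 to 3. Knock-out replicate 2 is the highest and the groups meet at 68 reads. Bik averaged 4.22 ± 1.08 RPKM in the knock-out group and 2.98 ± 0.54 RPKM in the wild-type group (SD, n = 3 each). The difference of 0.38 on the log2(RPKM + 1) scale had a 95% interval of -0.27 to 1.03 and did not pass (limma adjusted p = 0.941). The exact permutation p, two-sided, was 0.2.

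Bmf, whose protein is held at the actin and myosin cytoskeleton until released, had 144 estimated reads in knock-out replicate 1 and was listed at 0 in the other 5 libraries. Those reads went to ENSMUST00000154521, of 840 bases, which the annotation classes as a processed transcript with no coding sequence. The 2 coding transcripts of Bmf, which hold the BH3 codons, were at 0 in every library. Hrk, best known from neurons, was listed at 0 in all 6 libraries for both of its transcripts. Its locus has more than 1 transcript, so these zeros do not by themselves show that the RNA was missing.

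Bnip3 and Bnip3l encode outer-membrane proteins of mitochondria with a divergent BH3 domain, better known as receptors that lead damaged mitochondria into autophagy. Bnip3 had 1308 estimated reads (38.7 RPKM) in knock-out replicate 3 and was listed at 0 in knock-out replicates 1 and 2 and in all 3 wild-type libraries. Bnip3l had 2818 estimated reads (39.7 RPKM) in wild-type replicate 2 alone, with the 3 knock-out libraries and the other wild-type libraries at 0. For each gene the library with reads is a different one, in different groups. All reads of Bnip3 went to ENSMUST00000106112 (1756 bases) and all reads of Bnip3l to ENSMUST00000022634 (3238 bases), both of them coding transcripts with the BH3 codons in exon 4 of 6. In the library that lists it, each gene stood above Bad per length: Bad was at 26.3 RPKM in knock-out replicate 3 and at 29 RPKM in wild-type replicate 2. Among loci of 5 to 8 transcripts with at least 100 reads in their highest library, 416 of 2717 (15.3%) were above 0 in exactly 1 library. None of the 2390 loci with 1 transcript (0) was of that kind.

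**Figure D3:**
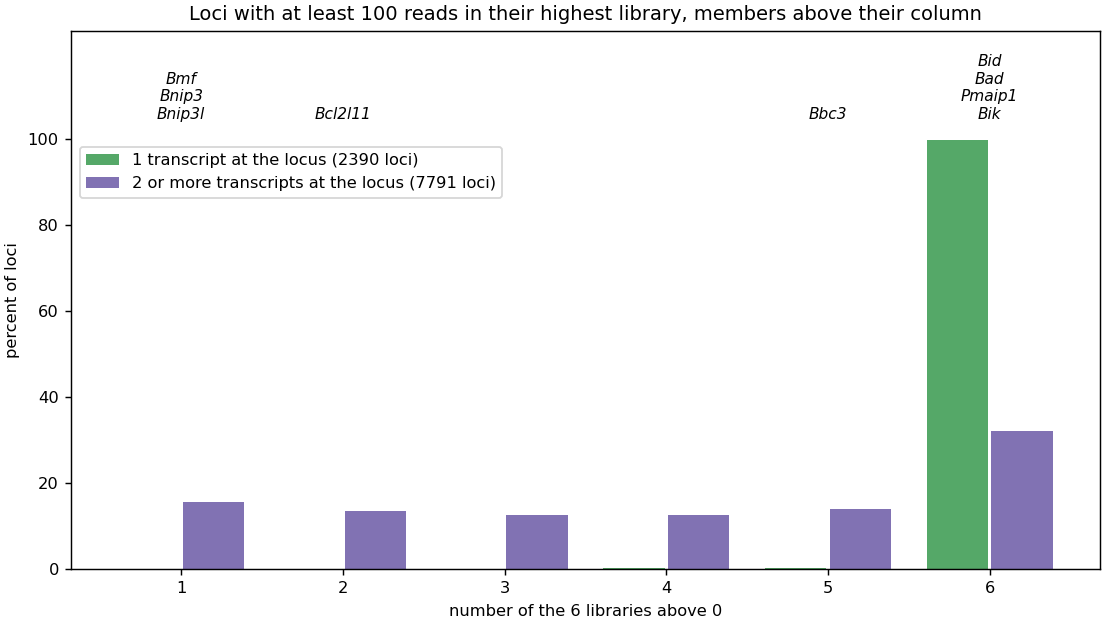
Percent of loci (y axis) by the number of the 6 libraries in which they were above 0 (x axis), among loci with at least 100 estimated reads in their highest library, for loci with 1 annotated transcript (green) and with 2 or more (purple). The BH3-only genes stand above their column: Bmf, Bnip3 and Bnip3l at 1 library, where 15.4% of loci with several transcripts and 0% of loci with 1 transcript lie.

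Per length, the 4 genes read in every library kept the order Bid, Bad, Bik and Pmaip1 in each of the 6. Bid stood 1.96 to 2.84 times above Bad in RPKM, and Bad 6.58 to 12.3 times above Bik. The ranges of Bid (58.3 to 92.8 RPKM), Bad (26.3 to 35.9 RPKM) and Bik (2.43 to 5.46 RPKM) do not meet. Bik and Pmaip1 nearly do: in wild-type replicate 1, where Pmaip1 was high, Bik was 1.07 times Pmaip1, against 9.54 to 47.7 times in the other libraries. Bbc3, where its reads were assigned to the longer transcript, fell between Bad and Bik at 12.6 to 18.9 RPKM.

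**Figure D4:**
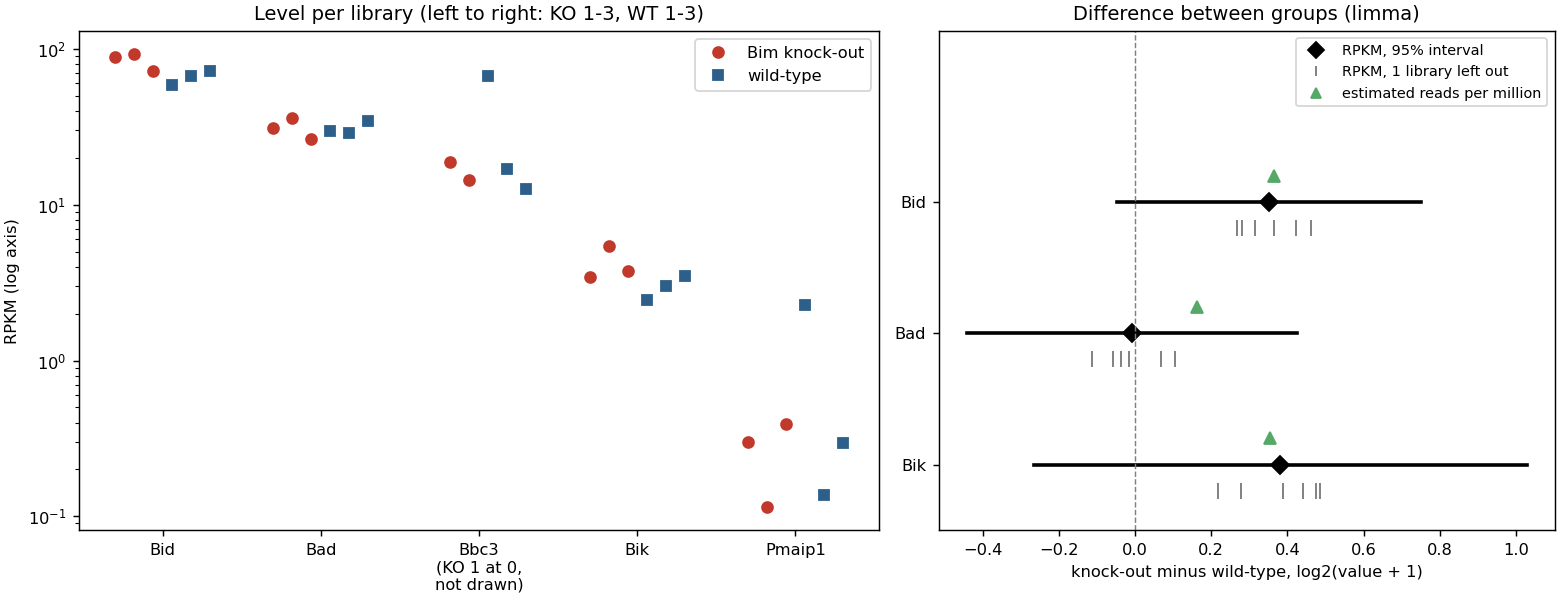
Left, RPKM (log axis) of the BH3-only genes above 0 in at least 5 libraries, with knock-out libraries as circles and wild-type libraries as squares. Right, knock-out minus wild-type for Bid, Bad and Bik on the log2(value + 1) scale with the 95% interval of the limma fit (diamonds and bars), the values with 1 library left out (ticks) and the values from estimated reads scaled to library size (triangles); all 3 intervals include 0.

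Between the groups, none of the BH3-only genes passed the test. Of the 10, 8 reached a mean of 1 RPKM and were tested with limma, and 0 of these 8 were called at an adjusted p below 0.05, where 87 of all 11021 genes tested (0.789%) were, 0.372% higher and 0.417% lower in knock-out. A call among the 87 can rest on exact zeros throughout a group, and such zeros may be failed estimates. Atp5d, called higher, averaged 8.13 on the log2(RPKM + 1) scale for knock-out libraries, against 0 for wild-type libraries. Ndufa9, called lower, averaged 0 against 6.44 in the same order. Both names were picked after their values were seen, and how many of the 87 are of this kind was not counted. Among the 5538 genes above 0 in all libraries limma called 0 (0.0%), with 130 at an unadjusted p below 0.05. With a pseudocount of 0.1 the 8 also gave 0 calls, where 0.853% of all genes were called (0.39% higher, 0.463% lower in knock-out). At an unadjusted p below 0.05 limma gave 0 of the 8, and voom, which weights the estimated reads, called 0 and gave 1 (Bid, unadjusted p = 0.0219). Over all 11021 genes, 208 were below that unadjusted p with limma and 395 with voom. Bid was also below 0.05 with limma on estimated reads scaled to library size (limma unadjusted p = 0.0311). Without knock-out replicate 3 its limma unadjusted p was 0.0256, and in the remaining limma settings it was above 0.05. Over all genes, 137 and 310 were below 0.05 in those fits, in that order. None of the 8 (0) had groups that did not overlap in RPKM, where 5.46% of all tested genes did, and 5.94% of those above 0 in all libraries. Of the 8, 5 had a library at 0, and Bcl2l11, Bmf, Bnip3 and Bnip3l reached the filter through 1 or 2 libraries. Without wild-type replicate 1 the test called 1 of the 8, Bcl2l11, where 1.88% of all genes were called, 0.726% higher and 1.15% lower in knock-out.

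The partners and regulators of the family were read from lists of 75 genes in all, of which 64 were tested and 0 called by limma or by voom. At an unadjusted p below 0.05 limma gave 1 of them, Ywhah, a 14-3-3 protein, and voom gave 4 (Akt1, Akt2, Gabarap and Ppp3ca), names given after their values were seen. Over all 11021 genes tested, limma gave 208 and voom 395 at that unadjusted p. The estimated reads of Ywhah were 13564, 13248 and 12694 in knock-out, against 12742, 14564 and 14133 in wild-type, while its RPKM was 640.9, 447.01 and 603.2 in the knock-out group and 299.3, 408.6 and 363.7 in the wild-type group. Its reads thus overlap and its RPKM do not, where 5.46% of all tested genes had groups that did not overlap in RPKM. Akt1, Akt2, Gabarap and Ppp3ca each had at least 1 library at 0.

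By role, the counts were 0 called of 2 effectors tested, 0 of 6 anti-apoptotic partners, 0 of 13 regulators of BIM and 0 of 6 regulators of PUMA and NOXA. They were likewise 0 of 10 activators and receptors of BID, 0 of 14 kinases and partners of BAD and 0 of 15 mitophagy partners of BNIP3 and NIX. The median difference over the 29 partners above 0 in all libraries was -0.07, against 0.00 over all 5538 such genes (log2 scale).

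The effectors and anti-apoptotic proteins that BH3-only proteins act on showed the same gaps. Bax had 3268 estimated reads in knock-out replicate 3, against 2101 in wild-type replicate 2, and the other 4 libraries were at 0. Bak1 had 2972, 2182 and 0 estimated reads in knock-out replicates 1 to 3, against 2402, 0 and 2676 in wild-type replicates 1 to 3. Mcl1, the main partner of NOXA, had 8744, 0 and 7148 estimated reads in knock-out, against 12308, 9046 and 8426 in the wild-type group. Bcl2l1, which encodes BCL-XL, was read everywhere, with 3582, 4500 and 3334 estimated reads in knock-out, against 4632, 4024 and 4158 in the wild-type group. Its groups overlap, and its limma adjusted p was 0.996 among genes above 0 in all libraries. Bcl2l2, which encodes BCL-W, had 5092, 3754 and 469.1 estimated reads in knock-out, against 3058, 4319 and 3372 in the wild-type group. Knock-out replicate 3 is the low library there, and the groups overlap. Bcl2 was low, with 26, 80 and 0 estimated reads in knock-out, against 0, 66 and 34 in the wild-type group. Bok and Bcl2l10 were at 0 throughout.

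The anti-apoptotic partners had the lowest median among the roles, -0.86 over the 4 genes above 0 in all libraries. Among them, Bcl2a1d, of a group of A1 genes active in blood cells, had 108, 54 and 116 estimated reads in knock-out, against 1296, 114 and 94 in the wild-type group. Its near-identical copy Bcl2a1a had 80, 50 and 76 in knock-out, against 914, 86 and 66 in the wild-type group. The third copy listed, Bcl2a1b, was at 0 in all 3 knock-out libraries and in wild-type replicates 2 and 3, with 4968 reads in wild-type replicate 1. How reads were divided between these copies is uncertain. As with Pmaip1, wild-type replicate 1 alone was high in the A1 genes. Without it the median over the 4 genes was -0.20, against 0.02 over all genes above 0 in all libraries. The difference of Bcl2a1d was then -0.10, against -1.25 with all libraries, and that of Bcl2a1a -0.05, against -1.16. Bcl2l1 was then at -0.30, against -0.57, whereas Bcl2l2 was at -0.65, against -0.56. The part of the macrophage markers in the A1 values was not tested.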

How the data were processed

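The submitters' processing notes name TopHat2, version 2, and the build GRCm38 (mm10). For the tool that divided the reads among transcripts, and its use of strand: not given in the sources used here. The deposited files hold, per transcript, an estimated read count and its RPKM, both computed by the authors. In the deposited files the estimated reads of a locus summed to whole numbers (within 0.001) at 99.5% to 99.7% of loci above 0, and 92.3% to 93% of these sums were even, so a count of 2 may stand for 1 read. No counting interval is given for that reason.

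Transcript values were summed per gene. Genes whose mean reached 1 RPKM were tested on log2(RPKM + 1) with limma 3.58.1 (R 4.3.3; mean-variance trend, two-sided, Benjamini-Hochberg over all genes tested), 6 libraries in 1 fit without covariates. Changes of low genes come out too small on this scale. Single values were compared by exact permutation with scipy 1.17.1. The limma code was tested on data simulated from genes above 0 in all 6 libraries, so not on genes with exact zeros. Biopython 1.88 translated coding sequences of GENCODE M21, whose models matched the files in ends and length for 43 of the 46 transcripts; ENSMUST00000025910 of Bad and the transcripts of Bik and Pmaip1 differed. All 10 genes are named, as are partners past the test, the 3 genes closest to Bcl2l11 and, by their values, the effectors and anti-apoptotic partners. Other names are said to be chosen after their values. The genes and lists were chosen with earlier results of these data known.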

Additional observations from a re-analysis of the deposited data

How the results depend on the processing

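With all 3 knock-out libraries at 0, the difference of Bcl2l11 could only be negative, as it was under all settings that could be fitted. Bcl2l11 stayed short of the threshold except without wild-type replicate 1, where it passed. It was at -4.18 with a pseudocount of 0.1, -2.89 on reads scaled to library size and -6.75 with voom. With 1 library left out its difference ranged from -3.11 to -1.46 (log2 scale), the number of BH3-only genes called from 0 to 1, and the number called over all genes from 182 to 207, against 87. The number over all genes was 0 with genes above 0 in all 6 libraries, 0 with zeros at loci with several transcripts taken as missing and 0 with the replicate number as a block. The unadjusted p below 0.05 in those 3 fits numbered 130, 298 and 198. With the replicate block Bcl2l11 was at -2.07 (limma adjusted p = 0.892). Deviations of same-numbered libraries from their group means had correlations of -0.158, -0.049 and -0.005 over 5538 genes. Each knock-out library correlated best with a wild-type library of another number (0.312, 0.145 and 0.224 for replicates 1 to 3). With deviations from means of only 3 libraries a group, these values cannot decide whether equal numbers pair the libraries. Bid stayed between 0.27 and 0.46 in 18 settings and Bik between 0.22 and 0.62 in 17. Bad turned positive with quantile normalization (0.08), reads scaled to library size (0.16), voom (0.17), without knock-out replicate 3 (0.10) and without wild-type replicate 3 (0.07). With 1 library left out it ranged from -0.11 to 0.10. On its transcript of highest mean alone it was at -1.25. Bcl2l11 could not be fitted with its zeros left out, nor at a mean of at least 5 RPKM. For Bbc3, Bmf, Bnip3, Bnip3l and Pmaip1 no difference is given, and none was called (0) under any alternative that tested them. Pmaip1 was tested only without the filter and Hrk under none.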

Other observations

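The ratio of Bid to Bad was looked at after the values were seen, and it depends on which quantity is used. In RPKM it was 2.84, 2.58 and 2.74 in knock-out replicates 1 to 3 and 1.96, 2.3 and 2.09 in wild-type replicates 1 to 3, with no overlap between the groups. In estimated reads it was 8.41, 7.6 and 6.67 in the knock-out group and 5.93, 6.76 and 7.07 in the wild-type group, and the groups overlap. The reads of Bad are spread over transcripts of 663 to 1451 bases, and the share on each transcript differs between libraries. No test was made of either ratio, and how often ratios of other gene pairs do not overlap was not counted. Among single genes above 0 in all libraries, 5.94% had groups that did not overlap in RPKM.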
